A study of Homo sapiens with 6 samples.

Results

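The genes examined here encode the machinery that licenses replication origins in G1, fires them in S phase and copies DNA at the fork. The set was fixed by gene symbol and holds 53 genes. All 53 were found among the 54308 genes of the deposited table. All 53 had a value in each of the 6 libraries, so all were among the 19306 genes that could be tested. RNA came from 143B cells, a human osteosarcoma (OS) cell line. Vector control (VC) cells had been transfected with a control plasmid. CNTNAP4 knockout (KO) cells had been transfected with a plasmid carrying a guide RNA, Cas9 and a red fluorescent protein. The labels give 48 h of transfection for each group, while the study's methods give 72 h followed by sorting of single cells and expansion of KO colonies. There were 3 VC and 3 KO libraries, described as biological replicates, and the labels do not say which colony a library came from. The methods give fewer expanded KO colonies than there are KO libraries, so the KO libraries cannot all come from separate colonies. Clonal differences and the deletion therefore cannot be told apart in these libraries. Cells of both groups were grown in the same serum-containing medium. The comparison asks how RNA of the replication genes differed after loss of CNTNAP4, a transmembrane protein of the neurexin superfamily.

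Replication starts in 2 separated steps. In licensing, the origin recognition complex (ORC), CDC6 and CDT1 load the MCM2 to MCM7 ring onto DNA in G1, and geminin, the product of GMNN, holds CDT1 back afterwards. In activation, the CDC7 and DBF4 kinase and the cyclin-dependent kinases recruit CDC45 and the GINS complex to MCM, which together form the moving helicase. Polymerase alpha with primase then lays primers, polymerase epsilon and polymerase delta extend them, the clamp PCNA is loaded by replication factor C, and RPA coats single-stranded DNA. Many of these genes are transcribed from late G1 into S phase under E2F factors, so proliferating tumour lines carry high levels of their RNA.

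The depth behind each value is unknown, because the deposited values are log2 signals that had been quantile-normalized between libraries, and the linear unit is not given in the sources used here. The 6 libraries had values for 20333 to 21041 genes, each with a median log2 signal of 0.62. For CNTNAP4 the table lists a single value, -7.18 in VC replicate 3, close to the bottom of the scale, so the deleted gene does not check the group labels. Of the 11 genes of an osteosarcoma cell list, VIM (mean log2 signal 10.4 in VC and 10.8 in KO) and SPARC (6.50 and 6.87) were high, while IBSP had no value, BGLAP had 2 values and SP7 was near the bottom of the scale (-7.09 and -7.14). Of the 9 genes tested, 2 were lower (22.2%) and 4 higher (44.4%), against 19.8% and 13.1% of all genes tested. The called genes that changed most were SPP1 (log2 fold change 1.55) and COL1A2 (-0.81). COL1A2 was low on the scale, with mean log2 signals of -4.81 in VC and -5.62 in KO. Of 8 markers of other cell types, 1 was called higher (CD68, log2 fold change 1.66), 1 lower (EPCAM, -0.67), 4 were not called and 2 were not tested. The summed linear signal of the 8 markers lay between 24.9 and 26.1 in VC and between 54.5 and 89.9 in KO. Without CD68 it lay between 3.29 and 3.60 in VC and between 1.87 and 2.33 in KO. The 6 markers other than CD68 and EPCAM did not exceed a log2 signal of -3.29 in any library, and 11 of their table cells were empty. The part of CD68 and EPCAM in the results below was not tested. No mitochondrially encoded transcript of a 9-gene list was found under its symbol.

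Promoter sequences were examined for the letters of the core E2F site, in the form TTCCCGC and in the related forms TTCGCGC and also TTGCCGC and finally TTGGCGC. These 4 E2F words were searched on both strands in the 250 bases before the annotated start of each gene (RefSeq, GRCh38.p14). An entry was found for 47 of the 53 genes. At least 1 E2F word was present in 22 of the 47 promoters (46.8%), against 11% of 27305 promoters in the same table. The word CCAAT was present in 26 (55.3%, against 33%), and TTTGAA, the core of the CHR element of mitotic genes, in 1 (2.13%, against 13.6%), that of RRM1. The compared promoters were not matched for base composition, and its part in these shares was not tested. The words can overlap, as TTGGCGC and TTCGCGC on opposite strands do in ORC1 and MCM6. The following windows are shown because they hold the word nearest to the start in genes described below, with the E2F words in capitals, 5′ to 3′ on the strand of the gene.
ORC1, chr1:52404425-52404454, minus strand: ccacgccgaTTGGCGCGAAgttttcttttc
CDT1, chr16:88803754-88803783, plus strand: GCGGGAAatttgGCGGGAAccgcgcccgcc
PCNA, chr20:5126664-5126693, minus strand: gcagcgtcagggGCGGGAAaaggcgtgcgt
TYMS, chr18:657602-657631, plus strand: cgcgggacggccGCGGGAAaaggcgcgcgg
UHRF1, chr19:4909471-4909500, plus strand: caaatgccgagttttcGCGGGAAaaaaatc
CHAF1A, chr19:4402610-4402639, plus strand: gcggactgcgggggtcgccgcggTTCCCGC

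The word of TYMS ended 32 bases before the start, that of UHRF1 7 bases and that of CHAF1A at the base before it. CDT1 carried the same 7-letter word as PCNA, TYMS and UHRF1 at a pair of nearby places, the nearer 16 bases before its start, although it was 1 of the 3 genes whose KO mean was above the VC mean. All 120 bases before the RefSeq start of CDT1, and 49 of those of TYMS, lay within same-strand exons of the GENCODE annotation. The distances to the start therefore depend on the annotation used. For comparison, the 120 bases before the start are given for MCM6, with an overlapping pair of words, and for GINS1 and ORC6, which fell in KO cells and held no E2F word in the 250 bases searched.
MCM6, chr2:135876444-135876563, minus strand: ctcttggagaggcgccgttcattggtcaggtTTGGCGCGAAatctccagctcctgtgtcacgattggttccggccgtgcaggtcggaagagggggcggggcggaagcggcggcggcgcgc
GINS1, chr20:25407553-25407672, plus strand: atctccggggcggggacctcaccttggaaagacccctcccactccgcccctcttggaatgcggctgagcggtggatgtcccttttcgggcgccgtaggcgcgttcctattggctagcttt
ORC6, chr16:46689539-46689658, plus strand: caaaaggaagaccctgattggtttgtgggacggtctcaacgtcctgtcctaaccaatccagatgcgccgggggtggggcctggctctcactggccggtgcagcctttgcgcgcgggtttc

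RNA of the replication genes was lower in KO cells for 16 of 53 genes and higher for none, by limma's moderated test with Benjamini-Hochberg adjustment over all 19306 genes (adjusted p under 0.05). Across all genes tested, 19.8% were called lower and 13.1% higher, and the members' share called lower was 30.2%. At an unadjusted p under 0.05, 32 of the 53 genes were lower and 1, CDT1, was higher, against 30% and 17.8% of all genes tested. The median log2 fold change of the 53 genes was -0.53, against -0.13 over all genes tested. All 53 genes were among the 9653 genes whose mean signal was at or above the median of the genes tested, called higher-signal genes here. The median log2 fold change of the higher-signal genes was -0.09, and 22.5% of them were called lower and 16.7% higher in the same fit. The KO mean was under the VC mean for 50 genes and above it for CDT1, MCM5 and CDC45. It was under the VC mean for 11540 of all 19306 genes tested and for 5652 of the 9653 higher-signal genes. Fewer cells in S phase and less RNA of each gene per cell cannot be told apart in bulk RNA.

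In 40 of the 53 genes all 3 KO values were under all 3 VC values, which was the case for 36.7% of the 17698 genes with 6 values. CDT1 was the only one of the 53 genes with all KO values above all VC values (22.6% of genes), and the groups overlapped in 12. The number called depended strongly on single libraries. Without KO replicate 1 it was 41 of 53 (31% of all genes lower), without KO replicate 2 it was 10 (14.3%), and without KO replicate 3 it was 1 (5.54%). Without VC replicate 1, 2 or 3 it was 1 (3.47%), 2 (7.45%) or 0 (3.05%, with 20 of the 53 genes and 23.3% of all genes lower at an unadjusted p under 0.05). Of the 16 genes called, 7 stayed called in 1 of these 6 fits, 7 in 2, TYMS in 3 and RPA3 in 5. When the higher-signal genes were tested alone, 35 of the 53 genes were lower (35.6% of the genes tested) and CDT1 was higher (23.4%).

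**Figure D1:**
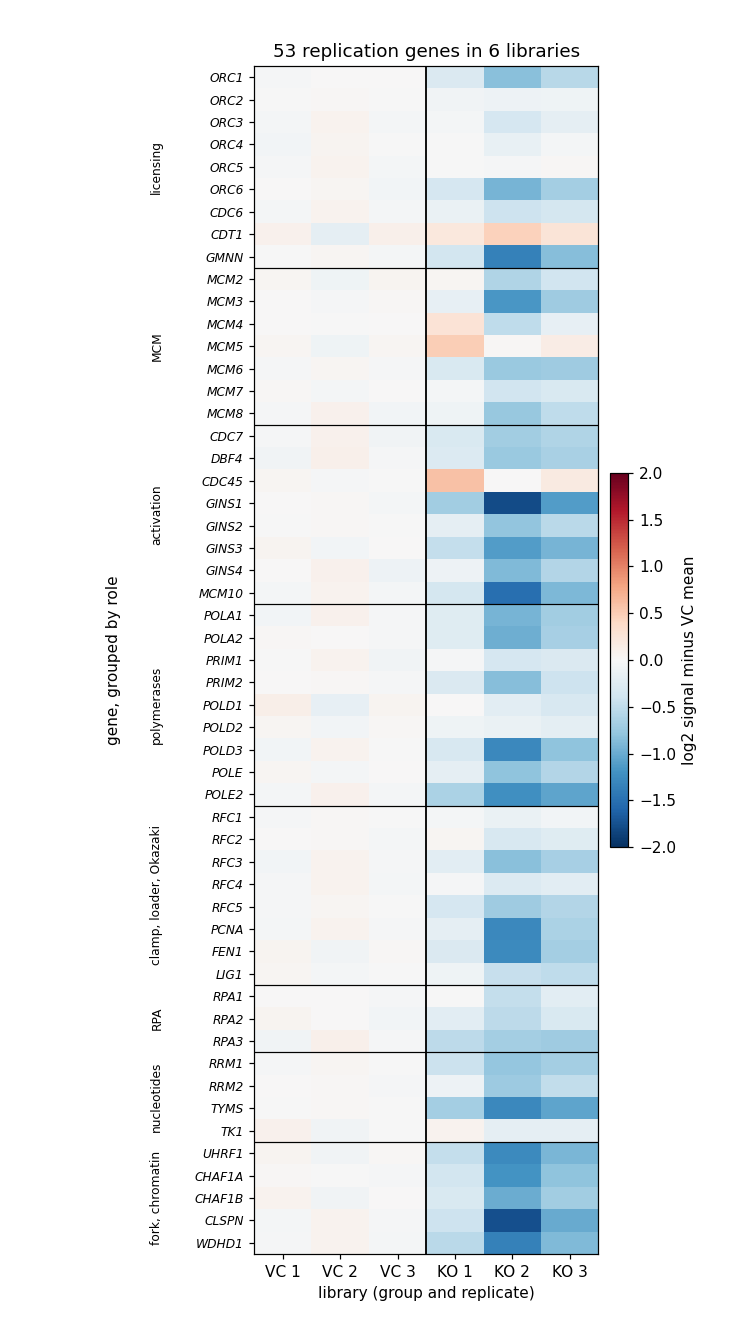
Log2 signal of each of the 53 genes (rows, grouped by role) in each library (columns), minus the gene's mean over the 3 VC libraries. Blue marks values under the VC mean and red values above it. KO replicate 2 is the bluest column and KO replicate 1 the palest of the 3 KO columns. CDT1, MCM5 and CDC45 are the red rows, and MCM4 is red in KO replicate 1 alone.

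Among the licensing genes, the origin recognition subunits ORC6 and ORC1 fell, and CDC6, GMNN, CDT1 and the other 4 subunits were not called. Of the 9 genes, 2 (22.2%) were called lower, near the 19.8% of all genes tested, and the median log2 fold change was -0.19. ORC6, the smallest subunit of the complex, had log2 signals of 5.02, 5.06 and 4.96 in VC replicates 1, 2 and 3, and of 4.67, 4.09 and 4.33 in the KO replicates. Every KO value lay under every VC value, and the log2 fold change was -0.65 ± 0.16 (SE, n = 3 per group, limma adjusted p = 0.034). ORC1, the ATPase subunit that is degraded after origins fire, went from 4.30, 4.35 and 4.35 to 4.04, 3.50 and 3.78, again with no overlap. Its log2 fold change was -0.56 ± 0.15 (limma adjusted p = 0.041). ORC5, a core subunit, gave 3.07, 3.16 and 3.05 in VC and 3.09, 3.07 and 3.11 in KO. Its groups overlapped, and the 95% interval of its log2 fold change ran from -0.17 to 0.16. The log2 fold changes of ORC2, ORC3 and ORC4 were -0.09, -0.19 and -0.06, each without a call.

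CDT1 and geminin, the loader and its inhibitor, stood on opposite sides of control. CDT1 gave 5.09, 4.82 and 5.11 in VC and 5.22, 5.48 and 5.26 in KO, a log2 fold change of 0.31 ± 0.12 that was not called (limma adjusted p = 0.098). GMNN gave 3.07, 3.12 and 3.04 in VC and 2.72, 1.72 and 2.23 in KO, a log2 fold change of -0.85 ± 0.26 (limma adjusted p = 0.054). Both pairs of groups were separate, and in both genes KO replicate 2 lay farthest from control. CDC6, the ATPase that works with CDT1, had a log2 fold change of -0.30 (limma adjusted p = 0.070).

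The MCM genes did not move as a block. MCM6 was the 1 gene of 7 called lower (14.3%, under the 19.8% of all genes tested). The median log2 fold change of the group was -0.32. MCM6 gave 5.60, 5.67 and 5.61 in VC and 5.32, 4.89 and 4.91 in KO, with a log2 fold change of -0.59 ± 0.13 (limma adjusted p = 0.029). MCM3 had a larger log2 fold change, -0.68 ± 0.26, but its KO values spread from 5.79 to 6.78, and it was not called (limma adjusted p = 0.091). MCM4 gave 7.02, 7.02 and 7.03 in VC and 7.30, 6.52 and 6.86 in KO. KO replicate 1 was above all the VC values of MCM4 and the other KO replicates were below them, and the log2 fold change was -0.13 ± 0.20 (limma adjusted p = 0.65). MCM5 gave 5.65, 5.54 and 5.66 in VC and 6.11, 5.64 and 5.77 in KO, a log2 fold change of 0.22 ± 0.14 (limma adjusted p = 0.26). The log2 fold changes of MCM2, MCM7 and MCM8, a relative that acts in recombination, were -0.32, -0.24 and -0.45, none called.

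Of the helicase activation genes, the GINS subunits GINS1 and GINS3 and both subunits of the CDC7 and DBF4 kinase fell. These were 4 of 8 genes (50%, against 19.8% of all genes tested), and the median log2 fold change was -0.54. GINS1 gave 4.16, 4.19 and 4.12 in VC and 3.46, 2.37 and 3.04 in KO. Its log2 fold change, -1.20 ± 0.28, was the most negative of the 53 genes (limma adjusted p = 0.031). This log2 fold change corresponds to 43.6% of the VC signal on the linear scale. GINS3 gave 3.59, 3.49 and 3.55 in VC and 3.06, 2.42 and 2.62 in KO (log2 fold change -0.84 ± 0.18, limma adjusted p = 0.024). GINS2 and GINS4 had log2 fold changes of -0.50 and -0.52, with KO values all under VC values and no call. DBF4, the regulatory subunit that appears at the G1/S border, went from 3.80, 3.97 and 3.85 to 3.60, 3.14 and 3.22 (log2 fold change -0.55 ± 0.14, limma adjusted p = 0.039), and its kinase partner CDC7 had a log2 fold change of -0.53 (limma adjusted p = 0.029).

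CDC45, the third component of the active helicase, did not follow GINS. It gave 4.62, 4.56 and 4.59 in VC and 5.18, 4.59 and 4.77 in KO. KO replicate 1 was the highest of the 6 libraries and KO replicate 2 lay within the VC range, so the groups overlapped (log2 fold change 0.26 ± 0.16, limma adjusted p = 0.26). MCM10, which helps the assembled helicase to move off, gave 4.77, 4.87 and 4.77 in VC and 4.45, 3.29 and 3.91 in KO. Its log2 fold change of -0.92 ± 0.30 was not called (limma adjusted p = 0.063), with a range of 1.16 over the KO libraries against 0.10 over the VC libraries.

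**Figure D2:**
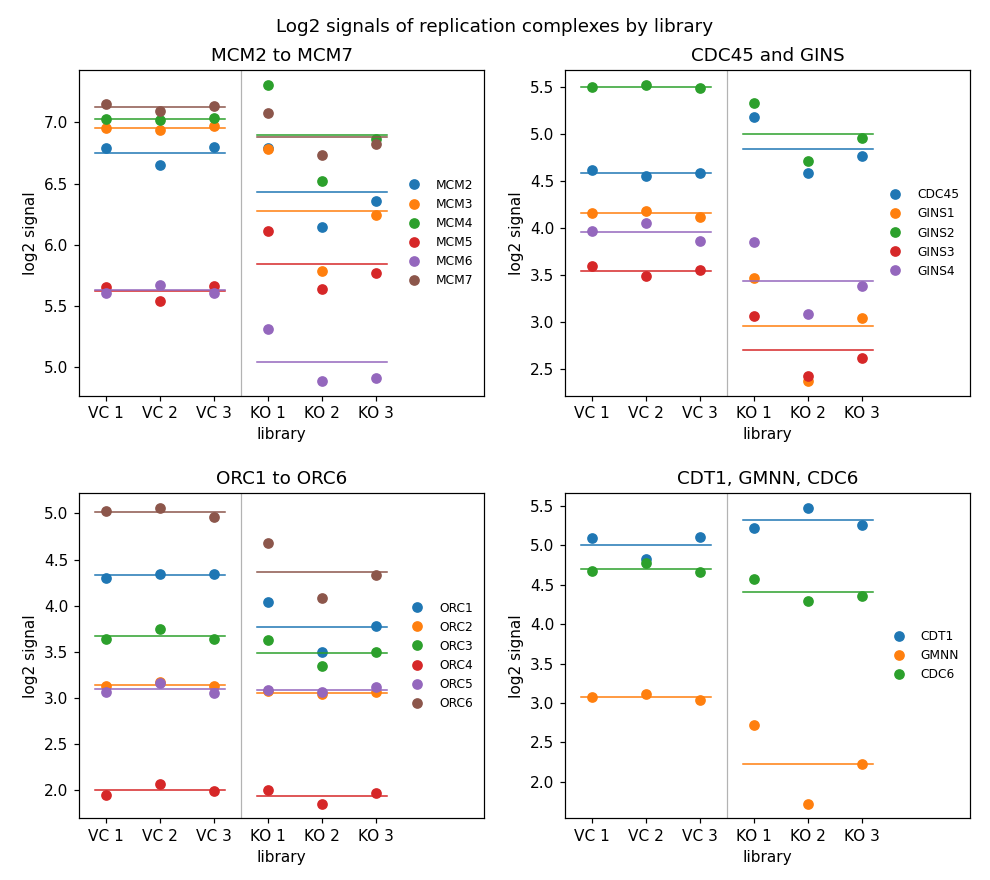
Log2 signal (vertical axis) in each library (horizontal axis) for the MCM2 to MCM7 genes, for CDC45 with the GINS genes, for the ORC genes, and for CDT1, GMNN and CDC6. Points are single libraries and lines are group means. The CDC45 line is higher in KO than in VC, while all 4 GINS lines are lower. ORC6 and ORC1 are lower in KO, while ORC2 to ORC5 keep close to their VC lines.

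Differences between partners were also taken within each library, where length and other fixed properties of the genes cancel between groups. A change shared by a whole chromosome does not cancel where partners lie on different chromosomes, as MCM5 and CDC45 do (see the chromosome comparison below). These 4 differences were chosen after the values were seen. CDC45 minus the mean of GINS1 to GINS4 averaged 0.30 ± 0.045 over the VC libraries and 1.32 ± 0.10 over the KO libraries on the log2 scale (± SD, n = 3 per group). MCM5 minus the mean of the other 5 subunits of the ring went from -1.08 ± 0.050 to -0.46 ± 0.086. CDT1 minus GMNN went from 1.93 ± 0.20 to 3.10 ± 0.63, and ORC1 minus the mean of ORC2 to ORC5 from 1.35 ± 0.041 to 0.88 ± 0.21. In each of the 4 the groups did not overlap, but the choice was made on these values, so this count carries no weight. Among 17698 single genes with a value in every library, all KO values lay under all VC values in 36.7% and above them in 22.6%. The share for differences between other genes was not tested. A two-sided exact permutation test could not decide, because its smallest p for 3 against 3 libraries is 0.1, above 0.05.

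Among the polymerase and primase genes, POLE2, the second subunit of polymerase epsilon, was the 1 gene of 9 called lower. This share, 11.1%, was under the 19.8% of all genes tested. All 9 KO means were under the VC means (median log2 fold change -0.53). POLE2 gave 3.70, 3.83 and 3.72 in VC and 3.12, 2.52 and 2.70 in KO, a log2 fold change of -0.97 ± 0.17 (limma adjusted p = 0.016). This log2 fold change corresponds to 51.0% of the VC signal on the linear scale. POLE, the catalytic subunit, had a log2 fold change of -0.53 (limma adjusted p = 0.064). The subunits of polymerase alpha, POLA1 and POLA2, had log2 fold changes of -0.62 and -0.63, and the primase subunits PRIM1 and PRIM2 of -0.22 and -0.51. In polymerase delta, the log2 fold change of POLD3 was -0.81 ± 0.25 (limma adjusted p = 0.058). POLD1, the catalytic subunit, gave 4.81, 4.52 and 4.75 in VC and 4.70, 4.48 and 4.37 in KO. The POLD1 groups overlapped, with a log2 fold change of -0.18 ± 0.13 (limma adjusted p = 0.32), and POLD2 had a log2 fold change of -0.14.

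Of the clamp, clamp loader and Okazaki fragment genes, 1 of 8 was called lower (12.5%, under the 19.8% of all genes tested). The median log2 fold change was -0.45. RFC5, a small subunit of the clamp loader, gave 3.70, 3.76 and 3.71 in VC and 3.39, 3.02 and 3.13 in KO (log2 fold change -0.54 ± 0.11, limma adjusted p = 0.024). RFC1, its large subunit, gave 4.52, 4.57 and 4.53 in VC and 4.51, 4.40 and 4.48 in KO, with a log2 fold change of -0.08 ± 0.067 (limma adjusted p = 0.41). RFC2, RFC3 and RFC4 had log2 fold changes of -0.17, -0.57 and -0.17, none called. PCNA, the sliding clamp, gave 7.18, 7.29 and 7.20 in VC and 7.05, 5.93 and 6.59 in KO. All KO values of PCNA were under the VC values, but they ranged over 1.11 and the log2 fold change of -0.70 ± 0.29 was not called (limma adjusted p = 0.11). FEN1, the flap endonuclease, had a log2 fold change of -0.75 (limma adjusted p = 0.074), and LIG1, which seals the fragments, of -0.35 (limma adjusted p = 0.088).

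RPA3, the smallest subunit of the single-strand binding complex, had the smallest adjusted p of the 53 genes. It gave 3.91, 4.08 and 3.95 in VC and 3.45, 3.30 and 3.27 in KO, and its KO libraries differed by no more than 0.18. The log2 fold change of RPA3 was -0.64 ± 0.089 (limma adjusted p = 0.011). RPA1, the large subunit, gave 5.43, 5.44 and 5.41 in VC and 5.42, 4.95 and 5.22 in KO, with overlap and a log2 fold change of -0.24 ± 0.13 (limma adjusted p = 0.21). RPA2 had a log2 fold change of -0.35 (limma adjusted p = 0.055).

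Among the genes for nucleotide supply, TYMS and RRM1 fell, and RRM2 and TK1 were not called. The share called lower was 2 of 4 (50%, against 19.8% of all genes tested), and the median log2 fold change was -0.53. TYMS, which makes thymidylate from deoxyuridylate, gave 8.02, 8.05 and 8.02 in VC and 7.34, 6.74 and 6.97 in KO. The log2 fold change of TYMS, -1.01 ± 0.16 (limma adjusted p = 0.015), corresponds to 49.7% of the VC signal on the linear scale. RRM1, the large subunit of ribonucleotide reductase, gave 6.52, 6.58 and 6.53 in VC and 6.12, 5.77 and 5.87 in KO (log2 fold change -0.62 ± 0.11, limma adjusted p = 0.016). RRM2, its small subunit, had a log2 fold change of -0.44 ± 0.17 (limma adjusted p = 0.094). TK1, the salvage enzyme, gave 4.60, 4.45 and 4.51 in VC and 4.59, 4.35 and 4.35 in KO, with overlapping groups and a log2 fold change of -0.09 ± 0.099 (limma adjusted p = 0.49). The 143B line is known as deficient in thymidine kinase activity, which these RNA values do not measure.

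The genes that protect the fork and copy chromatin behind it were the group with the most negative median log2 fold change, -0.89. Of these 5 genes, 4 were called lower (80%, against 19.8% of all genes tested). WDHD1, which tethers polymerase alpha to the helicase, gave 4.40, 4.48 and 4.38 in VC and 3.88, 3.07 and 3.54 in KO (log2 fold change -0.92 ± 0.21, limma adjusted p = 0.030). UHRF1, which recruits the maintenance DNA methyltransferase to new DNA, gave 6.07, 5.94 and 6.03 in VC and 5.53, 4.73 and 5.10 in KO (log2 fold change -0.89 ± 0.21, limma adjusted p = 0.031). CHAF1A and CHAF1B encode the subunits of the chromatin assembly factor that places histones on new DNA. CHAF1A gave 4.56, 4.52 and 4.51 in VC and 4.16, 3.33 and 3.72 in KO (log2 fold change -0.79 ± 0.22, limma adjusted p = 0.043), and CHAF1B had a log2 fold change of -0.67 (limma adjusted p = 0.046). CLSPN, the mediator of the replication checkpoint, gave 3.15, 3.26 and 3.17 in VC and 2.78, 1.44 and 2.19 in KO. The CLSPN values had the widest KO range of the 53 genes, 1.34, and its log2 fold change of -1.06 ± 0.34 was not called (limma adjusted p = 0.064).

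**Figure D3:**
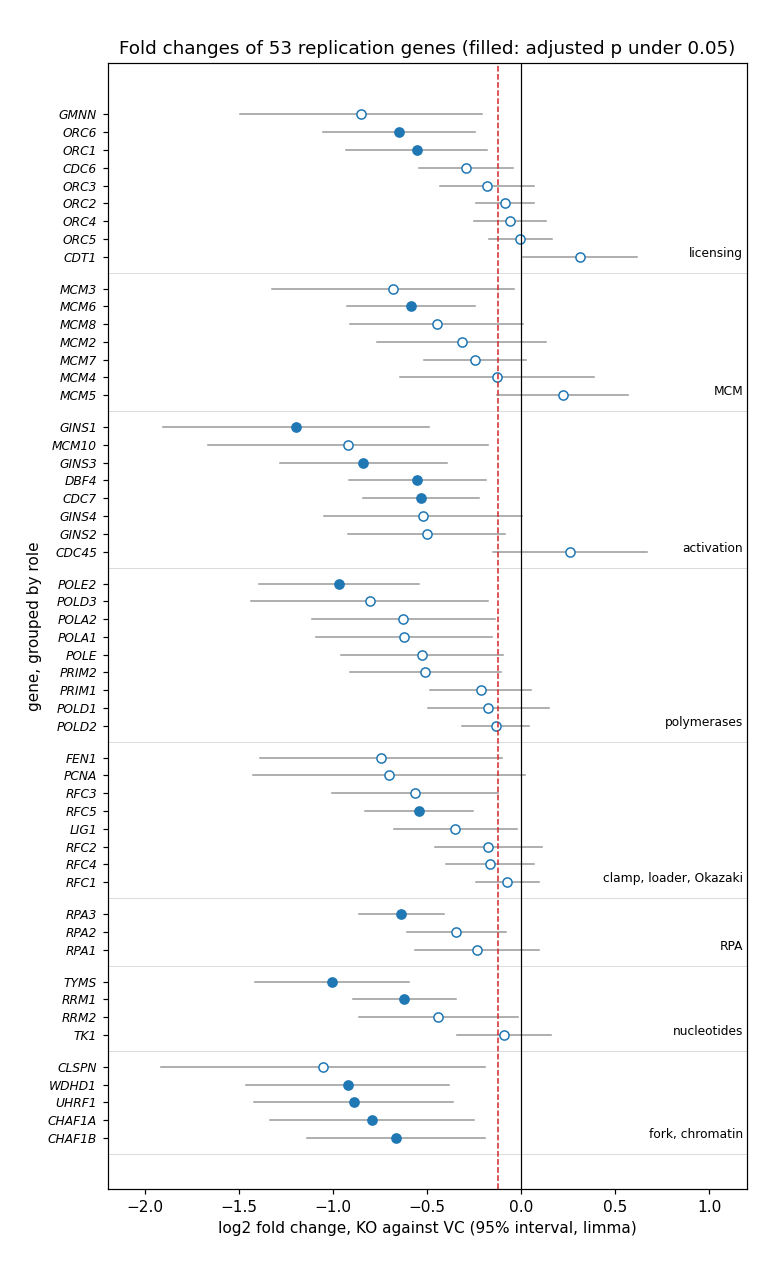
Log2 fold change of KO against VC (horizontal axis) for each of the 53 genes (vertical axis, grouped by role), with the 95% interval from limma. Filled points are the 16 genes with an adjusted p under 0.05, and the dashed line is the median of all 19306 genes tested, -0.13. GINS1, CLSPN and TYMS lie at or beyond a 2-fold lower signal, and CDT1, CDC45 and MCM5 lie to the right of 0.

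Each KO library was also set against the VC mean on its own. The median of the 53 genes was -0.18 in KO replicate 1, -0.74 in KO replicate 2 and -0.58 in KO replicate 3 on the log2 scale. Over the higher-signal genes these medians were -0.04, -0.12 and -0.10. The genes under their VC mean numbered 45, 50 and 49 of 53, against 55.5%, 58.7% and 60.2% of the higher-signal genes. KO replicate 2 was the lowest KO library for 47 genes (against 46.3% of the higher-signal genes) and KO replicate 1 the highest for 51 (against 54.4%). The full order, with replicate 1 above replicate 3 above replicate 2, held for 46 of the 53 genes (86.8%). It held for 40.8% of the higher-signal genes and for 83.3% of a 30-gene mitosis list. LIG1, POLD1, POLD2, RPA3 and TK1 were lowest in KO replicate 3, and CDT1 ran the other way, with KO replicate 2 highest.

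The spread within groups followed the same pattern. The median SD of the 53 genes was 0.056 in VC and 0.30 in KO, against 0.060 and 0.12 in the higher-signal genes. The SD was larger in KO than in VC for 50 of the 53 genes (94.3%, against 76.2% of the higher-signal genes). The genes with the widest KO ranges (CLSPN, MCM10 and PCNA) had log2 fold changes beyond the median of the 53 genes without a call, while RPA3 and RRM1 were called with smaller log2 fold changes and narrower KO ranges.

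**Figure D4:**
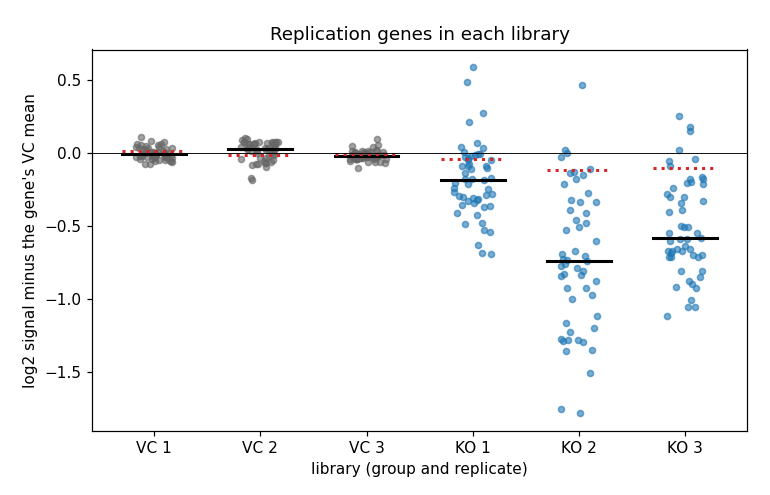
Log2 signal minus the VC mean of the gene (vertical axis) for the 53 genes in each library (horizontal axis). Black lines are the medians of the 53 genes (-0.18, -0.74 and -0.58 in KO replicates 1, 2 and 3), and red dotted lines are the medians of the higher-signal genes (-0.04, -0.12 and -0.10).

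The changes of genes with and without an E2F word in the promoter can be set side by side, as a description. A gene without a word lacked only these exact letters in the stretch searched before its annotated start. Such a gene may still be bound by E2F factors through other letters or elsewhere. Binding was not measured, so the part of E2F factors in these changes was not tested. Of the 22 genes with a word, 7 were called lower and the median log2 fold change was -0.55. Of the 25 genes with a promoter entry and no word, 8 were called lower and the median was -0.51. The ranges were -1.01 to 0.31 with a word and -1.20 to 0.26 without. The windows printed above cover both ends: TYMS and CDT1, the extremes of the genes with a word, carry the word TTCCCGC on the opposite strand near the start.

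The position of the genes was compared with the change of their chromosome, taken as the median log2 fold change of the other genes there among the higher-signal genes. Chromosome 22 was the only one of 23 with a median above 0 (0.31 over 237 genes). It carries MCM5 and CDC45, and these are the 2 of the 53 genes that lie there. Relative to that median, the log2 fold change was -0.09 for MCM5 and -0.05 for CDC45. Chromosome 14 had the most negative median (-0.35 over 333 genes) and carries POLE2 and WDHD1, whose log2 fold changes relative to it were -0.62 and -0.58. On chromosome 20 (median -0.24 over 283 genes), GINS1, PCNA and MCM8 stood at -0.95, -0.46 and -0.21 relative to it. With each library centred on the median of the chromosome, a choice made after the data were seen, 15 of the 53 genes were lower (17.1% of all genes in that fit) and CDT1 was higher (16.9% of all genes, log2 fold change 0.43, limma adjusted p = 0.045). In that fit the median of the 53 genes was -0.44, DBF4 and WDHD1 were no longer called (limma adjusted p = 0.055 and 0.076), and MCM5 and CDC45 lay below 0 without a call.

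Genes of 4 related lists outside the set are counted beside the shares over all genes tested, 19.8% called lower and 13.1% higher. Of 41 other replication genes, 17 were called lower and 1 higher (median log2 fold change -0.41). SUPT16H, a subunit of the histone chaperone FACT, had a log2 fold change of -1.01 ± 0.17 (limma adjusted p = 0.015). POLD4, the smallest subunit of polymerase delta, gave 3.95, 3.74 and 3.92 in VC and 4.67, 5.38 and 5.20 in KO. Its log2 fold change of 1.21 ± 0.20 (limma adjusted p = 0.015) was opposite in sign to those of POLD1, POLD2 and POLD3. Of 10 genes of the replication checkpoint, 2 were lower, a share near that of all genes, and none higher (median -0.35): WEE1, the kinase that restrains CDK1, with a log2 fold change of -1.08 (limma adjusted p = 0.011), and ATR, the kinase that responds to stalled forks, with -0.62 (limma adjusted p = 0.020).

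Of 29 E2F factors and G1/S regulators, 10 were lower and 4 higher, the latter again near the share of all genes (median -0.46). CDKN1A, which encodes the inhibitor p21 that blocks cyclin-dependent kinases and binds PCNA, gave 3.87, 3.74 and 3.85 in VC and 5.63, 6.17 and 5.74 in KO. The log2 fold change of CDKN1A was 2.02 ± 0.16 (limma adjusted p = 0.0060). E2F2, an activating E2F factor, had a log2 fold change of -1.75 ± 0.43 (limma adjusted p = 0.033), with KO values from -0.24 to 1.41. All 30 genes of the mitosis list were lower, with a median log2 fold change of -0.71. AURKA, a spindle kinase, had a log2 fold change of -1.48 (limma adjusted p = 0.0095), and ANLN, a scaffold of the cytokinetic ring, of -1.20 (limma adjusted p = 0.014). The median SD over the KO libraries was 0.21 for the mitosis genes and 0.30 for the 53 replication genes.

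**Figure D5:**
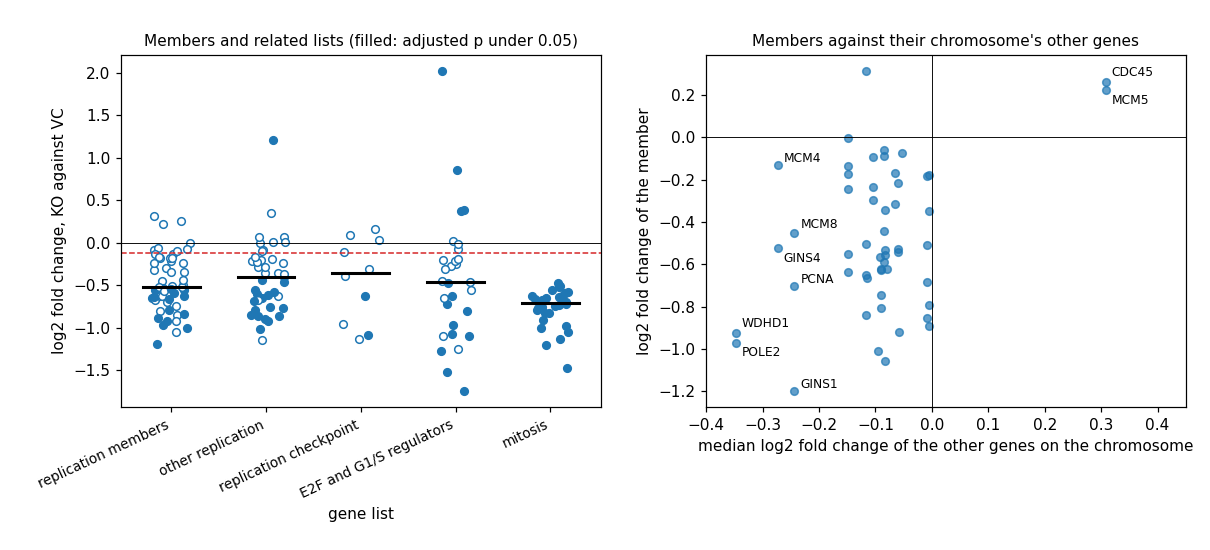
Left, log2 fold change of KO against VC (vertical axis) of each gene tested in the replication set and in 4 related lists (horizontal axis), with black lines at the medians (-0.53, -0.41, -0.35, -0.46 and -0.71), filled points for an adjusted p under 0.05 and a dashed line at the median of all genes tested. Right, log2 fold change of each of the 53 genes (vertical axis) against the median log2 fold change of the other genes on its chromosome (horizontal axis). CDC45 and MCM5 stand alone at 0.31.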

How the data were processed

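RNA from 3 VC and 3 CNTNAP4 KO samples of 143B cells had been sequenced by the authors, who deposited log2 signals by gene symbol, quantile-normalized between the libraries. The submitters' processing notes name CASAVA, STAR, Partek and GRCh38.p13, and the paper's methods name CLC Genomics and Partek Genomics Suite. Libraries are labelled as made with a stranded mRNA kit, whereas the methods speak of sequencing total RNA. The linear unit, read depth and tool versions are not given in the sources used here, so no interval for counting error is given. An empty cell was taken as no value, and 0 columns were left unmapped.

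Every gene measured in 2 or more libraries per group was compared in R 4.3.3 with limma 3.58.1 (empirical Bayes moderation without trend, two-sided, Benjamini-Hochberg adjustment over 19306 genes), and genes with an adjusted p under 0.05 are called higher or lower. The script was tested on simulated data with the same spread in both groups, which does not cover genes with a wider spread in KO. The p-values measure the spread between these libraries, not the spread between independent KO clones. The members, the 7 related lists and the tests were chosen with earlier results of these data known. Values in every library are given for up to 3 called members with the largest absolute log2 fold change in each of 8 role groups, the member with the largest adjusted p in each, every member with a KO mean above its VC mean, the 3 with the widest KO range, and TK1 and CNTNAP4. The 2 called genes with the largest change are given for each related list. The library values of GMNN, POLD4 and CDKN1A were added after they were seen. Chromosomes and promoters came from RefSeq tables (GRCh38.p14) by symbol, and no promoter entry was used for MCM4, MCM5, GINS4, POLD3, RPA2 and RPA3. Alternatives covered the pseudocount, filters on low values, scaling, the variance model, a replicate block and each library left out.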

Additional observations from a re-analysis of the deposited data

How the results depend on the processing

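The median log2 fold change of the 53 genes stayed below 0 under every alternative run, from -0.67 when KO replicate 1 was left out to -0.39 when KO replicate 2 was left out, while the number called lower, 16 (with 19.8% of all genes), did not hold. It was 26 with 1 added to the linear signal (with 24.8% of all genes in that fit), 35 (and CDT1, 1 gene higher) among higher-signal genes alone (35.6%), 34 (and 1 higher) with trend and robust moderation (25.5%), 6 without moderation (12.6%), and 0 to 41 when 1 library was left out. It stayed within 1.5 times with genes of 6 values (21, with 23.5% of all genes), median-centred libraries (16, with 16.7%) and chromosome-centred libraries (15, with 17.1%, and 1 higher, an alternative added after seeing the data). With the replicate block the number was 0, where 4.86% of all genes were called lower, and at an unadjusted p under 0.05 it was 30, where 27.5% of all genes were lower. Samples with the same number did not deviate together (correlations of 0.023, 0.0051 and -0.0074 over 17698 genes), so the numbers were not taken to pair the libraries. The number of all genes called, 6354, was 1533 with the replicate block, 4432 without moderation, and lay between 1223 and 8669 with 1 library left out. The sign changed for 7 of the 53 genes, none of them called: ORC4 was 0.022 with median-centred and 0.025 with chromosome-centred libraries, ORC5 was 0.079 with median-centred and 0.13 with chromosome-centred libraries and between -0.025 and 0.027 with 1 library left out, RFC1 was 0.0086 with median-centred libraries, and MCM4 lay between -0.33 and 0.058 with 1 library left out. With chromosome-centred libraries MCM4 was 0.16, CDC45 -0.052, TK1 0.0084 and MCM5 -0.091. The cause was not tested. Unknown depth limits what can be said of the genes near the bottom of the scale, but all 53 genes were among the higher-signal genes.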
